A study of Mus musculus with 8 samples.

Results

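The 32 genes described here are neuronal and brain glial markers, looked up by symbol among the 49315 Ensembl gene IDs of a bulk RNA sequencing count table from newborn mouse calvaria, the bony roof of the skull. All 32 matched 1 row each, and 20 of them passed the filter on low counts and were tested. Calvaria came from female C57BL6 mice aged 2 to 3 days, 4 wild-type (WT) and 4 Girk3-/- (labelled Girk3 knockout, KO), and each of the 8 libraries was made from snap-frozen whole tissue. Girk3, encoded by Kcnj9, is a subunit of potassium channels that open when G proteins are activated, and the knockout was global. Nothing in the labels ties the libraries of a genotype to separate animals or litters, so p-values measure the spread between these samples. The design sets whole bone of one genotype against the other.

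Neurons share a set of proteins for axon growth, for transport along microtubules and neurofilaments, and for release of transmitter from synaptic vesicles. Astrocytes clear glutamate and hold water channels at the vessel wall, radial glia are the stem cells of the developing brain, and oligodendrocytes make the myelin of brain axons. The newborn skull roof lies over the forebrain and its meninges and carries sensory and sympathetic axons, whose cell bodies, and with them most neuronal mRNA, lie elsewhere. Some genes named for neurons are also used by other cells: Bcl11b by T cells and skin, Slc1a3 by osteoblasts and Aqp4 by fast skeletal muscle fibres.

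Each library held between 35.4 M and 54.3 M counts. A floor of 3 counts was 0.0553 to 0.0848 CPM (counts divided by library size, on the usual per-megaread scale), and floors cover counting error only. Bone defined the tissue: 12 bone genes summed to between 170630 and 219130 CPM in the 8 libraries, against 80.4 to 189.7 CPM for the 32 members. Kcnj9 held 0, 0, 1 and 4 counts in WT replicates 1 to 4 and 2, 5, 7 and 9 in KO replicates 1 to 4, so at this depth it does not check the labels. KO replicate 4 stood apart in breadth, with 983 genes that held over 3 counts there and 0 in the other 7 libraries, where each of the others had 8 to 32 such genes. WT replicate 3 and KO replicates 2 and 3 held little skeletal muscle RNA, at 69.6, 126 and 284 CPM summed over 41 muscle genes, against 1094 to 4116 CPM in the other libraries.

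The members were mostly faint in calvaria, and 1 wild-type library held far more of them than the rest. WT replicate 1 was the highest of the 8 libraries for 29 of the 32 members, while it was highest for 11.6% of the 26598 genes with over 3 counts in any library and for 11.8% of tested genes. The exceptions were Bsn and Rbfox3, highest in KO replicate 4, and Bcl11b, highest in KO replicate 2. Summed over members, WT replicates 1 to 4 held 189.7, 86.5, 80.4 and 82.5 CPM and KO replicates 1 to 4 held 104, 107, 129 and 111 CPM. The other 3 WT libraries thus lay below every KO library, and WT replicate 1 lay above every one. This sum is weighted to abundant members. Slc1a3 and Bcl11b had means of 31.4 and 20.2 CPM in KO, against 25.3 and 13.1 CPM in WT replicates 2 to 4. Member by member, only Bsn, Tubb3 and Slc1a3, 3 of the 20 tested, had every KO library above WT replicates 2 to 4, against 6.66% of tested genes. Of members below the filter Elavl4 alone did so, narrowly, at 7 counts in KO replicate 1 against 6 in WT replicate 2. KO replicate 3 was next in line: it was the highest of the 4 KO libraries for 17 of 32 members, against 22.3% of tested genes. KO replicate 4 was the highest KO library for 8 of 32, against 32.8% of tested genes. In bulk tissue, more cells of a type and more RNA per cell cannot be told apart, and the source of these transcripts was not tested.

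**Figure D1:**
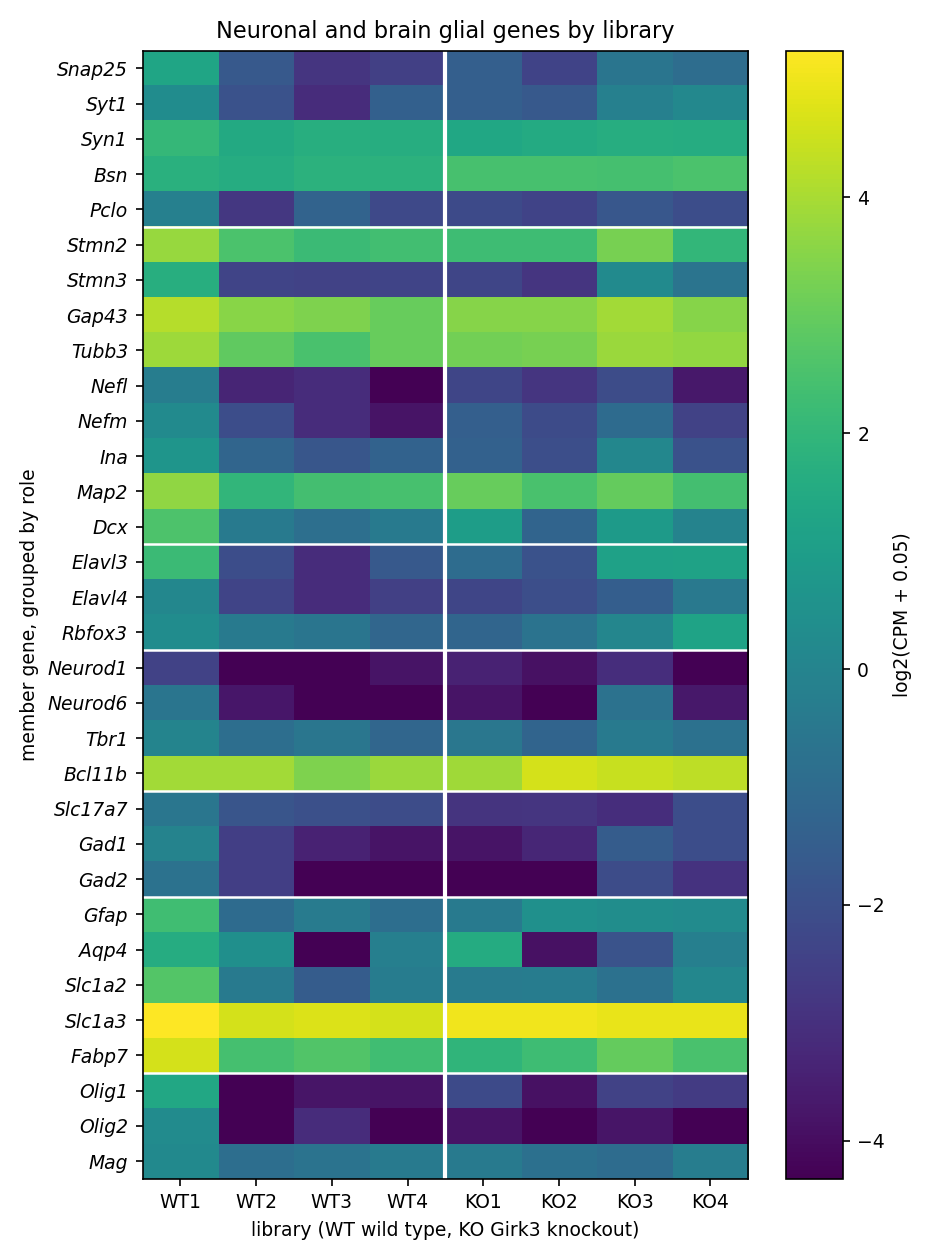
Heat map of the 32 members (rows, grouped by role and divided by white lines) in the 8 libraries (columns), coloured by log2(CPM + 0.05). The WT1 column is the brightest in 29 rows, whereas the Bsn and Bcl11b rows do not follow it.

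Among presynaptic genes, Bsn rose in knockout, and the other 4 did not pass or were not tested. Bsn encodes Bassoon, a giant scaffold of the zone where synaptic vesicles fuse. It held 3.28, 3.01, 3.47 and 3.5 CPM in the WT libraries and 5.50, 5.50, 5.26 and 5.74 CPM in the KO libraries. Every KO library lay above every WT library, and WT replicate 1 was not high, at 0.988 of the mean of the other 3. The change was 0.73 ± 0.12 on the log2 scale (SE; means 3.31 ± 0.226 and 5.50 ± 0.194 CPM, SD, n = 4 each; edgeR quasi-likelihood adjusted p = 0.0149). The call was lost without WT replicate 2 (edgeR adjusted p = 0.0572) and without KO replicate 2 (0.0553), with log2 changes of 0.69 and 0.74. It was also lost without the 3 libraries poor in muscle (0.277, log2 change 0.79) and with replicate number as a block (0.0527, log2 change 0.73). The size of the change thus moved little while the call depended on single libraries and on the block. Bsn was the only member whose groups did not overlap, which 4.63% of tested genes did with knockout above and 5.96% with knockout below.

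Bsn (ENSMUSG00000032589) lies on the minus strand at chr9:108096022-108190384 (GRCm38/mm10), and no exon base of it overlaps a gene on the opposite strand. As the only member called, its promoter is shown, from RefSeq on GRCm38.p6 at chr9:108190387-108190546, 5′ to 3′ on the minus strand. Capitals mark 2 copies of the palindromic site of the transcription factor NRF1, a motif chosen after the sequence had been seen and searched on both strands.
Bsn promoter: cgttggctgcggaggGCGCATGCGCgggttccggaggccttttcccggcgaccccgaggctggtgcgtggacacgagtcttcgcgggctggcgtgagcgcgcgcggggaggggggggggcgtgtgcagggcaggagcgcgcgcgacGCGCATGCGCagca
Those letters occurred in 0.971% of 32851 mouse promoter windows of 300 bases and in 1 of the 32 windows of members, which covered 25 member genes.

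The vesicle genes of the group behaved otherwise. Snap25, a SNARE protein that drives vesicle fusion, held 2.41 CPM in WT replicate 1, 0.0894 to 0.264 CPM in the other WT libraries and 0.142 to 0.610 CPM in KO. Syt1, the calcium sensor of release, held 53, 9, 3 and 16 counts in WT and 15, 15, 37 and 39 in KO. Syn1, which tethers vesicles to actin, was nearly level at 2.53 to 4.05 CPM in all 8 libraries. Pclo, the partner of Bassoon in the release zone, held 38 counts in WT replicate 1 and 4 to 16 in the others, and failed the filter. Pclo was thus high in WT replicate 1 where Bsn was not. At these counts a rise in knockout of the size seen for Bsn would be hard to see in Pclo.

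**Figure D2:**
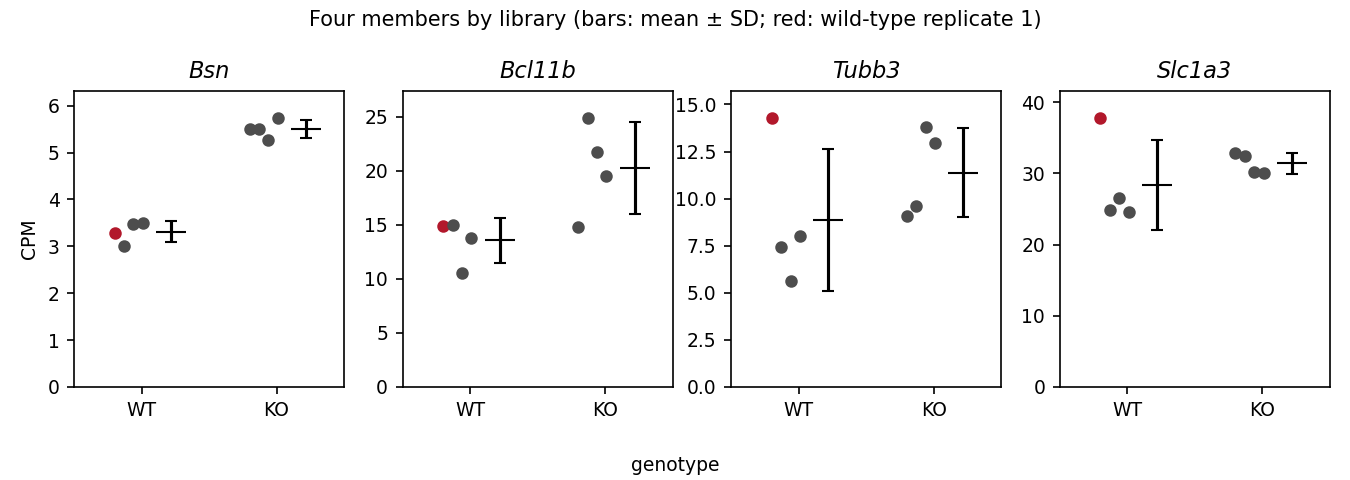
CPM (vertical axes, from 0) of Bsn, Bcl11b, Tubb3 and Slc1a3 in each library by genotype, with bars for the mean ± SD and WT replicate 1 in red. KO points lie above all WT points for Bsn alone, and above all WT points but the red one for Tubb3 and Slc1a3.

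Genes of the neuronal cytoskeleton and of axon growth included the most abundant members per length, Gap43 and Tubb3, and none of the 6 tested passed. Gap43, a membrane protein of growing axons, had the highest median level per kilobase of exon of the 32 members, at 7.40 CPM per kb, followed by Tubb3, the neuronal beta-tubulin, at 5.01 CPM per kb. Gap43 held 18.1, 11.5, 10.4 and 7.99 CPM in WT and 11.3, 11.3, 15.2 and 11.2 CPM in KO. It was thus highest in WT replicate 1 and, within knockout, in replicate 3, and the genotypes overlapped (log2 change 0.03 ± 0.23, SE, edgeR adjusted p = 0.965). Tubb3 held 14.3, 7.45, 5.63 and 8.01 CPM in WT and 9.07, 9.63, 13.8 and 12.9 CPM in KO, with a log2 change of 0.36 ± 0.282 (edgeR adjusted p = 0.552) that became 0.69 ± 0.176 (0.0913) without WT replicate 1.

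Stmn2, a stathmin that regulates microtubules in growing axons, ranged from 4.56 to 5.70 CPM in WT replicates 2 to 4 and held 13.5 CPM in WT replicate 1. In knockout it held 9.72 CPM in replicate 3 and 4.00 to 4.81 CPM in the others. Its relative Stmn3 was close to absent outside the same libraries, with 139 counts in WT replicate 1, 51 in KO replicate 3, 22 in KO replicate 4 and 5 to 7 in the other 5. Dcx, the microtubule protein of migrating young neurons, held 5.85 CPM in WT replicate 1, 0.514 to 0.725 CPM in the other WT libraries and 0.373 to 1.95 CPM in KO. Map2, which stabilises dendritic microtubules, ranged from 3.87 to 12.4 CPM in WT and 5.20 to 8.07 CPM in KO.

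The neurofilament genes were scarcer. Nefl, the light chain, held 35, 2, 3 and 0 counts in WT and 7, 5, 8 and 1 in KO. Nefm, the medium chain, held 51, 8, 3 and 1 counts in WT and 15, 10, 20 and 5 in KO. Ina, the intermediate filament of young axons, held 68 counts in WT replicate 1, 46 in KO replicate 3 and 8 to 17 in the other libraries. Nefl, Nefm and Ina were each highest in WT replicate 1. Nefl lies within the span of Nefm on chromosome 14, on the opposite strand, and 32.8% of Nefl exon bases and 19.2% of those of Nefm overlap the other gene on the opposite strand, as do 14.1% of those of Ina with Nt5c2. Whether the counting used strand is unknown here, and these values are less certain for it.

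The 3 neuronal RNA-binding genes were each higher in KO replicates 3 and 4 than in the other KO libraries. For Elavl4 the margin was small, at 11 counts in KO replicate 2 and 14 in KO replicate 3. KO replicate 4 was the highest KO library for 32.8% of all tested genes. Elavl3, which stabilises neuronal mRNAs, held 203, 8, 3 and 13 counts in WT and 22, 12, 95 and 83 in KO. Elavl4 held 45, 6, 3 and 6 counts in WT and 7, 11, 14 and 25 in KO. Both were highest in WT replicate 1, and Elavl3 was 25.9 times its mean over the other 3 WT libraries, the largest such ratio among the 28 members for which those 3 libraries held over 3 counts in all. Rbfox3, the splicing factor known as NeuN that marks mature neurons, ranged from 0.393 to 1.21 CPM in WT and from 0.390 to 2.28 CPM in KO, with its highest value in KO replicate 4. None of the 3 passed a test, and the log2 change of Elavl3 went from -0.02 ± 1.4 (edgeR adjusted p = 0.996) to 2.81 ± 0.962 (0.236) without WT replicate 1.

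Of the 4 neuronal transcription factors, Neurod1 and Neurod6 were near the floor in most libraries and Tbr1 and Bcl11b were not. Neurod6, a factor of cortical excitatory neurons, held 27, 1, 0 and 0 counts in WT and 1, 0, 25 and 1 in KO. Only WT replicate 1 and KO replicate 3 held it above the floor of 3 counts, and KO replicate 4, broad as it was in genes with reads, held 1 count. Neurod1, its relative, reached 6 counts in WT replicate 1 and at most 3 elsewhere. Tbr1, which marks deep cortical layers, held 19 to 42 counts in all 8 libraries. Like Neurod6 it was highest in WT replicate 1 (0.945 CPM) and next in KO replicate 3 (0.700 CPM), but its range was far narrower.

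Bcl11b, a zinc finger factor of cortical projection neurons, was the second member with an unadjusted p under 0.05. It held 14.9, 15, 10.5 and 13.8 CPM in WT and 14.8, 24.9, 21.7 and 19.5 CPM in KO. KO replicate 1 lay within the WT range and the other 3 above it. The log2 change was 0.58 ± 0.158 (SE, n = 4 each; edgeR adjusted p = 0.107). DESeq2 called it (adjusted p = 0.0108), as did edgeR without KO replicate 1 (0.0362), and limma-voom did not (0.135). Without the 3 libraries poor in muscle, which include KO replicates 2 and 3 where it was highest, the log2 change was 0.24 ± 0.137 (edgeR adjusted p = 0.649).

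Genes for making or loading transmitter were near the floor outside WT replicate 1, and none of the 3 passed the filter. Gad1, an enzyme that makes GABA, held 41, 5, 2 and 1 counts in WT and 1, 3, 13 and 7 in KO. Gad2, the second such enzyme, held 25, 5, 0 and 0 counts in WT and 0, 0, 8 and 3 in KO. Slc17a7, which fills vesicles with glutamate, held 28, 10, 9 and 9 counts in WT and 4, 5, 3 and 7 in KO, so that every KO library had fewer counts than every WT library. Its difference in CPM was -0.198 (exact permutation test, two-sided, p = 0.0571, adjusted p = 0.686 over the 12 members below the filter), since KO replicate 4, the shallowest library, overlapped WT replicate 4 once depth was counted. Across these 12 members no other exact permutation p was below 0.429, where the smallest possible p with 4 libraries against 4 is 0.0286. A single member at that smallest p could not have fallen under 0.05 after adjustment over the 12, so this test could not call 1 member alone.

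RE1, the element through which the repressor REST keeps neuronal genes silent in other tissues, was searched in the promoter windows. Its joined form, searched on both strands as AGCACC, then 2 bases of any kind, then GGACAG, occurred in 0.0517% of all windows and in that of 1 member, Gad2. The left part alone, TTCAGCACC, occurred in 0.371% of windows and in that of Syn1; it overlaps the joined form by 6 letters. The right part alone occurred in 0.137% of windows and in none of the 32 windows of members. Only exact letters were searched, so near matches, also next to the Syn1 match, were not counted. Syn1 was near even in every library and Gad2 was at 0 in 4 of 8. Whether the element bears on their level was not tested. Both matched stretches are shown. Both are from RefSeq on GRCm38.p6, 5′ to 3′ along the gene, at chr2:22622149-22622192 (plus strand) and chrX:20921127-20921165 (minus strand), with the matched letters in capitals.
Gad2 promoter: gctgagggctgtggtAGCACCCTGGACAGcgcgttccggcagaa
Syn1 promoter: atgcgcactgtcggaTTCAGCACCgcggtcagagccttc
Rest itself, named after its values were seen, held 32.9 to 40.9 CPM in WT and 31.3 to 59.1 CPM in KO (log2 change 0.32 ± 0.201, SE, edgeR adjusted p = 0.447), and of 10 genes for REST and its corepressors none was called.

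Astrocyte and radial glia genes included the member with the most CPM, Slc1a3, and none of the 5 passed. Slc1a3, the glutamate transporter GLAST, held 37.8, 24.8, 26.5 and 24.6 CPM in WT and 32.9, 32.5, 30.2 and 30.0 CPM in KO. WT replicate 1 was the highest, and the 4 KO libraries were above the other 3 WT libraries. Its log2 change was 0.14 ± 0.126 (SE, edgeR adjusted p = 0.593) and 0.31 ± 0.076 (0.0784) without WT replicate 1. Slc1a3, Tubb3 and Bsn were the 3 tested members, of 20, whose KO libraries all exceeded WT replicates 2 to 4, an arrangement found in 6.66% of tested genes.

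Slc1a2, the glutamate transporter GLT-1 of mature astrocytes, held 6.34 CPM in WT replicate 1, 0.291 to 0.766 CPM in the other WT libraries and 0.542 to 1.03 CPM in KO. Gfap, the astrocyte filament protein, held 4.86 CPM in WT replicate 1, 0.457 to 0.738 CPM in the other WT libraries and 0.714 to 1.33 CPM in KO. Fabp7, the fatty acid binding protein of radial glia, held 24.9 CPM in WT replicate 1 and 3.81 to 7.82 CPM in the other 7. These 3 genes had log2 changes of -1.40, -0.55 and -0.92 with all libraries and 0.39, 0.98 and 0.00066 without WT replicate 1, and none passed in edgeR (adjusted p 0.506 to 0.776 and 0.169 to 0.999).

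Aqp4, the water channel of astrocyte endfeet, varied in both genotypes. It held 131, 54, 0 and 40 counts in WT and 133, 1, 10 and 30 in KO, with 2.95 CPM in WT replicate 1 and 2.88 CPM in KO replicate 1. The lowest 3 values, 0, 1 and 10 counts, were those of the 3 libraries poor in skeletal muscle RNA. The part of muscle in the Aqp4 level was not tested, since the covariate fit below tests genotype. KO replicate 1 had the most muscle RNA, at 4116 CPM over the muscle genes and held 0.714 CPM of Gfap and 0.736 CPM of Slc1a2, within the range of the libraries other than WT replicate 1. With the muscle genes as a covariate the log2 change of Aqp4 went from -0.37 ± 1.44 to 0.40 ± 0.436 (SE, edgeR adjusted p = 0.924 and 0.674).

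**Figure D3:**
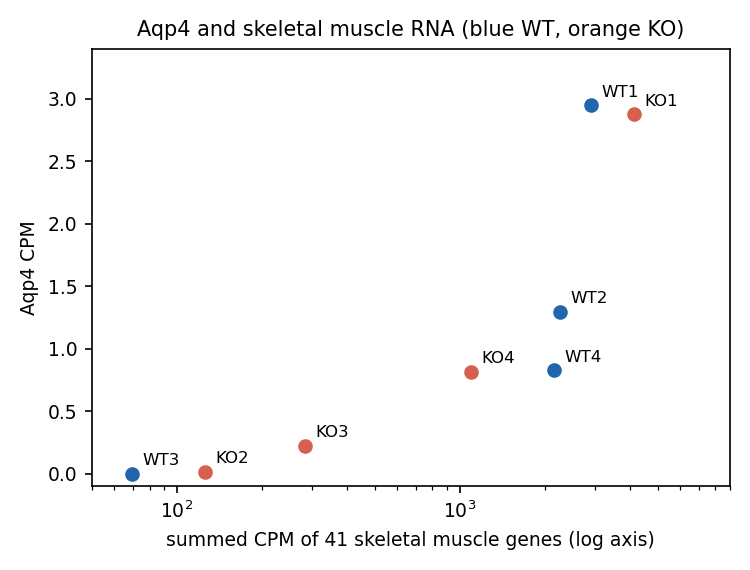
Aqp4 CPM (vertical axis) against the summed CPM of 41 skeletal muscle genes (horizontal log axis) in each library, WT in blue and KO in orange. The 3 libraries poor in muscle RNA hold 0 to 0.226 CPM of Aqp4 and the other 5 hold 0.816 to 2.95 CPM.

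Oligodendrocyte lineage factors were almost confined to WT replicate 1. Olig1, needed for oligodendrocyte maturation, held 115, 0, 1 and 1 counts in WT and 8, 1, 6 and 4 in KO. Olig2, which specifies the lineage and lies 41094 bases from Olig1 on chromosome 16, held 52, 0, 3 and 0 counts in WT and 1, 0, 1 and 0 in KO. KO replicate 3, which shared Neurod6 with WT replicate 1, held 1 count of Olig2. Mag, a myelin glycoprotein that Schwann cells also make, differed from both, at 50, 21, 26 and 35 counts in WT and 32, 30, 21 and 29 in KO (log2 change -0.25 ± 0.315, SE, edgeR adjusted p = 0.734).

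Over the 20 tested members, 1 was called higher in knockout and none lower, against 0.445% and 0.874% of 17743 tested genes (1.32% in either direction). Before adjustment 2 of 20 had p under 0.05, both higher, against 17.4% of tested genes. DESeq2 called 2 members, both higher, where it called 6.08% of genes in all and 2.64% higher; limma-voom called 1, where it called 0.941% of genes. No tool called a member lower, but DESeq2 gave no p-value for Slc1a2 and Gfap. Of the 20, 13 had a log2 change below 0 and 7 above 0 (median -0.16), and the median over all tested genes was -0.00029. Without WT replicate 1, a setting fixed for every library in turn, 12 of the 20 changed sign and 19 were above 0. The median was then 0.47 against 0.0073 over all genes, and Bsn remained the 1 call. WT replicate 1 was highest for 17 of the 20, so leaving it out raised their changes by construction. Without WT replicate 1 and KO replicates 3 and 4, chosen after the values were seen, no member was called, with Bsn at 0.73 ± 0.178 (edgeR adjusted p = 0.0982). In that setting Syn1, Stmn2, Ina, Rbfox3 and Fabp7 were below 0 and the other tested members above. The median biological coefficient of variation between libraries was 0.472 for the 20 members and 0.137 for all tested genes, which are not matched for level.

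**Figure D4:**
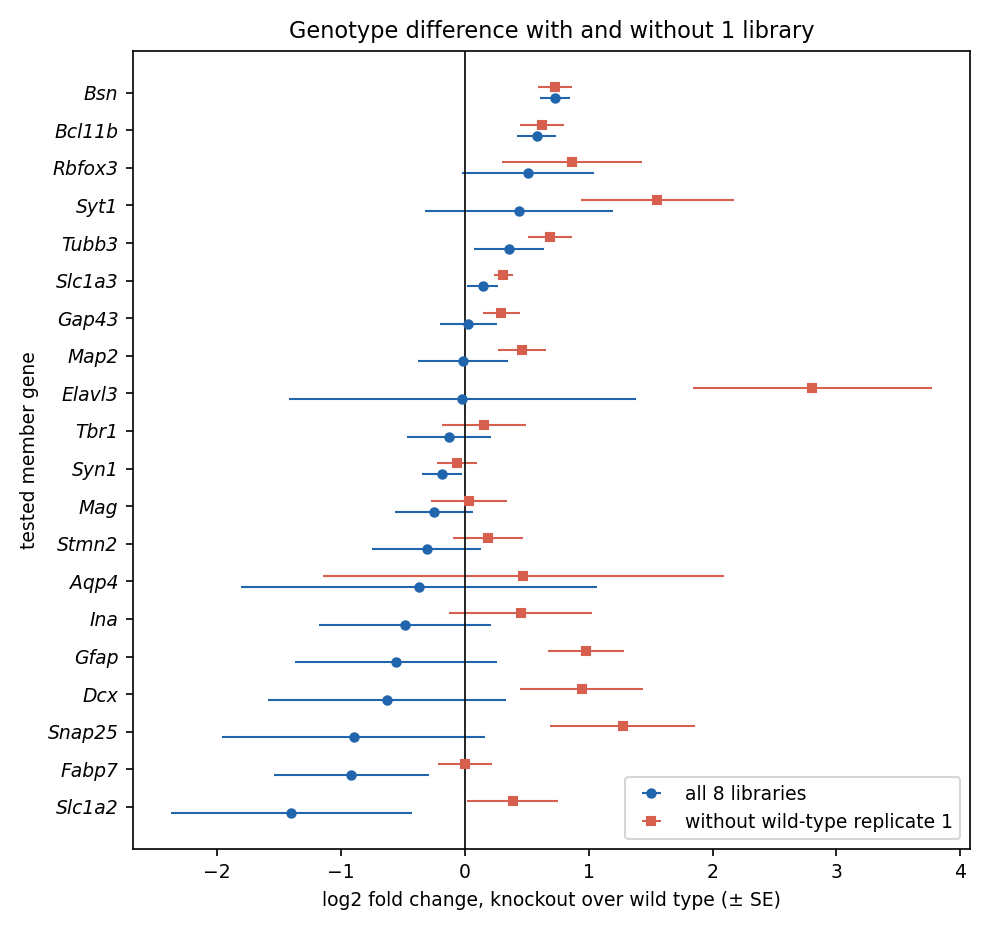
Log2 fold changes, knockout over wild type (horizontal axis, ± SE), of the 20 tested members with all 8 libraries (circles) and without WT replicate 1 (squares). Bsn and Bcl11b hardly move, while 12 members cross 0, among them Slc1a2, Snap25, Dcx and Gfap.

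Lists of related genes, chosen by cell type, placed the members among other tissues. Of 40 other synaptic genes 35 were tested, 1 fell and none rose (edgeR). None of 26 tested other cytoskeleton and growth genes was called. Vamp2 and Cplx2 had the highest levels per length of the first list (27.5 and 8.45 CPM per kb) and Tuba1a and Stmn1 of the second (227 and 43.6 CPM per kb). Their log2 changes were 0.29, 0.15, -0.09 and 0.04, and none was called.

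In the list of other astrocyte and radial glia genes, 1 of 22 tested fell: Clu, which encodes the secreted chaperone clusterin, by 0.56 ± 0.0837 on the log2 scale (SE, edgeR adjusted p = 0.0102; 0.283 without the 3 libraries poor in muscle). Vim and Apoe had the highest levels there, at 451 and 77.1 CPM per kb. Among 11 tested forebrain transcription factors none was called, and the highest was Dlx5 (38.0 CPM per kb), which osteoblasts also use. Of 8 tested genes of brain oligodendrocytes none was called, with Pdgfra and Tspan2 highest (28.0 and 8.57 CPM per kb). The microglia list had Tmem119 and Olfml3 highest (162 and 106 CPM per kb), no call in 7 tested, and Tmem119 is also made by osteoblasts.

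Lists of peripheral nerve followed. Of 14 tested genes of peripheral sensory and autonomic neurons, 1 fell: Ret, a receptor for glial cell line-derived factors, by 0.74 ± 0.146 on the log2 scale (edgeR adjusted p = 0.0309). Its call was lost when WT replicate 2, 3 or 4 or KO replicate 1, 2 or 3 was left out (adjusted p 0.0527 to 0.117) and without the libraries poor in muscle (0.465). The list had Avil and Ntrk2 as its highest genes (1.81 and 1.47 CPM per kb). WT replicate 1 was highest for 4 of the 24 genes of that list with over 3 counts in any library, against 29 of 32 members. Of 20 tested Schwann cell genes 2 fell, among them Mbp, a myelin protein, by 0.74 ± 0.123 on the log2 scale (SE, edgeR adjusted p = 0.0152). Mbp held 10.2, 8.05, 7.60 and 8.49 CPM in WT and 5.09, 5.22, 5.63 and 4.54 CPM in KO, with every KO library below every WT library. Its call was lost without KO replicate 2 (edgeR adjusted p = 0.0553) and without the libraries poor in muscle (0.165). Pmp22 and Fabp5 had the highest levels of the Schwann list, at 61.5 and 11.9 CPM per kb.

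Among tissues next to bone, the meningeal list had 1 of 13 tested genes higher, Zic1, a patterning factor, by 0.49 ± 0.0974 on the log2 scale (SE, edgeR adjusted p = 0.0328), and was led by Zic1 and Foxc1 (14 and 9.89 CPM per kb). The call of Zic1 was lost without WT replicate 1 (log2 change 0.45, edgeR adjusted p = 0.069), when any other WT library or KO replicate 1 or 2 was left out (0.0669 to 0.113) and without the libraries poor in muscle (0.0942). Choroid plexus, skeletal muscle and epidermis had no call in 6, 41 and 9 tested genes, and were led by Aqp1 and Enpp2, by Acta1 and Mylpf, and by Krt10 and Sfn. Of 12 bone genes 1 fell, Bglap, by 0.48 ± 0.101 (edgeR adjusted p = 0.0383), with Col1a1 and Spp1 highest. The call of Bglap was lost without WT replicate 1 (edgeR adjusted p = 0.0759), when WT replicate 2 or 3 or KO replicate 1, 2 or 3 was left out (0.065 to 0.127) and without the libraries poor in muscle (0.432). WT replicate 1 was highest for 13 of 21 forebrain factors, 14 of 25 other astrocyte genes and 15 of 27 other neuronal cytoskeleton genes, but for 10 of 41 muscle genes, 4 of 14 meningeal genes and 2 of 12 bone genes. Its muscle RNA, 2908 CPM, was below that of KO replicate 1.

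**Figure D5:**
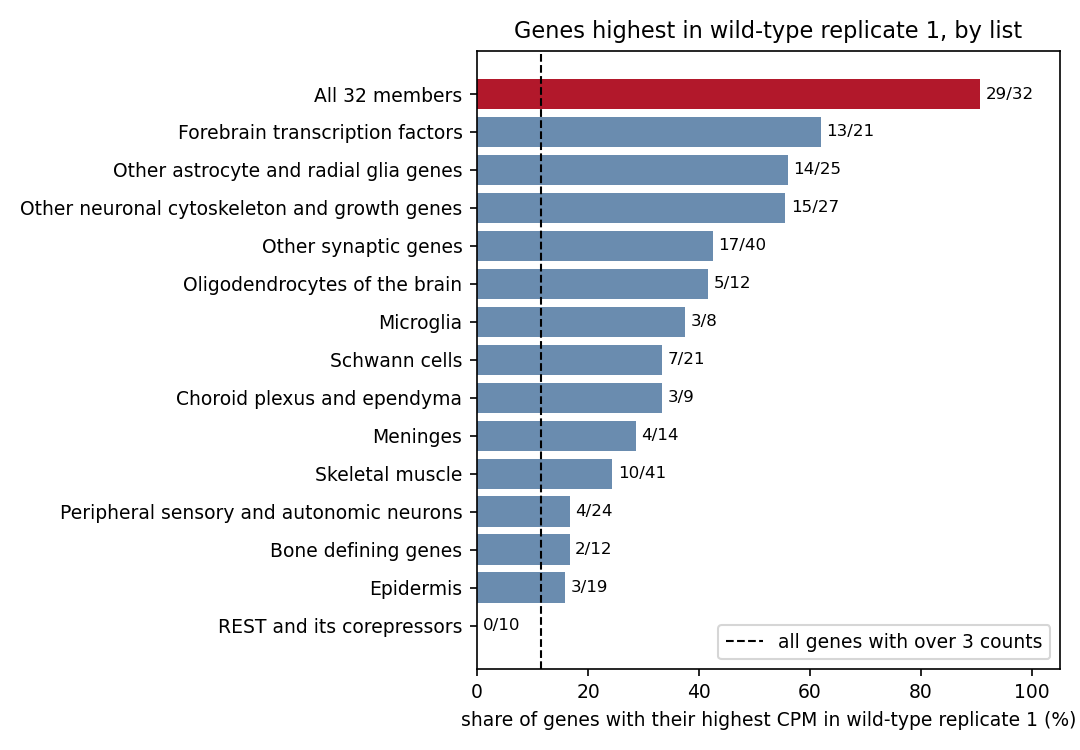
Share of the genes of each list (horizontal axis, percent, with counts) that had their highest CPM in WT replicate 1, among genes with over 3 counts in any library. The members reach 29 of 32, the forebrain factors follow at 13 of 21, and the dashed line marks 11.6% for all such genes.

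The members lay on 18 chromosomes, 7 of them on chromosome 2. None lay within 5 Mb of Kcnj9, and Map2 was the 1 member on the same chromosome, at chr1:66175273-66442583.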

How the data were processed

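The authors deposited raw counts per Ensembl gene ID for 8 libraries, with no normalization. The submitters' processing notes name bcl2fastq 2.17, STAR 2.5.2b, Subread 1.5.2 with its featureCounts, and build mm10; for the annotation release and strand setting, the sources used here give nothing. Groups and replicate numbers came from the titles. Symbols were taken from a table pairing them with gene IDs, and positions and exon lengths from GENCODE M21 on the same build.

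Low genes were removed by filterByExpr (at least 10 counts in enough libraries, at least 15 over all). The 17743 genes kept were scaled with TMM, then tested in R 4.3.3 by edgeR 4.0.16 (quasi-likelihood, two-sided). P-values were adjusted by Benjamini-Hochberg over all of them, with a threshold of 0.05. CPM used totals multiplied by TMM factors. The 12 members below the filter had their CPM, on plain totals, compared by exact permutation. DESeq2 1.42.0 and limma 3.58.1 were alternatives, and the script was tested on simulated data. Symbols in lists were matched for 293 of 295 entries.

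The members and lists were chosen with earlier results of these data known. Values in every library are printed for members called, for the member of highest mean CPM in each role, for those over 10 counts in some libraries and at 3 or fewer in others, and for those whose groups do not overlap. Members outside that rule were given by library where their pattern bore on a comparison. From each list the called genes and the 2 of highest level per kilobase are named, except some that are not reported here.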

Additional observations from a re-analysis of the deposited data

Results flagged for a closer look

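Each member was looked at within each genotype, 64 sets of 4 values. In 23 of them 1 value stood far apart by Dixon's test. About 3.2 would do so by chance if the sets were independent and roughly normal. The sets share libraries and some hold counts near the floor, so 3.2 does not measure chance here. Of the 23, 19 were values of WT replicate 1, and the members share that library. Its highest values in CPM were 2.41 for Snap25, 13.5 for Stmn2, 3.13 for Stmn3, 0.787 for Nefl, 1.15 for Nefm, 1.53 for Ina and 5.85 for Dcx. They were also 4.57 for Elavl3, 1.01 for Elavl4, 0.135 for Neurod1, 0.607 for Neurod6, 0.63 for Slc17a7 and 0.922 for Gad1. Among glial genes they were 4.86 for Gfap, 6.34 for Slc1a2, 37.8 for Slc1a3, 24.9 for Fabp7, 2.59 for Olig1 and 1.17 for Olig2. In the knockout group, replicate 3 stood far above the others for Stmn2 at 9.72, Gap43 at 15.2 and Neurod6 at 0.565 CPM, and replicate 4 for Slc17a7 at 0.19 CPM. Neurod1 reached only 6 counts, so its value is close to the floor.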

How the results depend on the processing

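One member, Bsn, was called higher in knockout with the planned settings other than those named here. The number called was 2 with DESeq2, 0 without the 3 libraries poor in muscle, 0 without WT replicate 1 and KO replicates 3 and 4 (added after seeing the data), and 0 to 2 when each library was left out. No setting called a member lower, though not every setting tested all 20. DESeq2 gave no p-value for Slc1a2 and Gfap, and a filter of at least 1 CPM in 4 libraries left out members such as Snap25 and Dcx. Over all genes the calls went from 234 to 952 with DESeq2, 355 with nearly no filter, 8 without the libraries poor in muscle, 132 in the added setting and 57 to 608 with 1 library left out (57 without KO replicate 2, 608 without KO replicate 4). No pairing by replicate number is stated. Same-numbered libraries correlated at 0.255, -0.179, 0.340 and -0.005 in their deviations, and no WT library correlated best with its own number. Over all genes such values also carry differences such as muscle content, so they cannot settle whether the numbers pair libraries. With the replicate block 126 genes and 0 members were called (Bsn 0.73 on the log2 scale, edgeR adjusted p = 0.0527).

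Log2 changes that crossed 0 were these, and none passed a test; the cause was not tested. Map2 was 0.0301 with library totals, 0.00013 with upper-quartile factors, 0.10 with limma-voom, 0.098 with the replicate block and 0.045 with the muscle covariate. Elavl3 was 0.045, 0.0066 with DESeq2, 1.02 with limma-voom, 1.17 with the replicate block and 0.88 with the muscle covariate, the first with library totals. Snap25 and Gfap were 0.15 and 0.19 with limma-voom, Gfap was 0.22 with the replicate block, and Aqp4 was 0.40 with the muscle covariate. Without the libraries poor in muscle Gap43 was -0.15 and Aqp4 0.15. In the added setting Snap25 was 0.54, Map2 0.50, Dcx 0.82, Elavl3 0.94, Rbfox3 -0.24, Tbr1 0.0043, Gfap 0.87, Aqp4 1.02, Slc1a2 0.36 and Mag 0.017.

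With 1 library left out, log2 changes ran from -1.26 to 1.27 for Snap25, -0.67 to 0.19 for Stmn2, -0.13 to 0.29 for Gap43, -1.30 to 0.45 for Ina, -0.21 to 0.46 for Map2, -0.94 to 0.94 for Dcx, -0.44 to 2.81 for Elavl3, -0.17 to 0.87 for Rbfox3 and -0.30 to 0.15 for Tbr1. They ran from -0.86 to 0.98 for Gfap, -1.92 to 0.47 for Aqp4, -1.75 to 0.39 for Slc1a2, -1.15 to 0.00066 for Fabp7 and -0.39 to 0.032 for Mag. Differences in CPM of members below the filter ran from -0.606 to 0.372 for Stmn3, -0.182 to 0.0752 for Nefl, -0.184 to 0.184 for Nefm, -0.106 to 0.236 for Elavl4, -0.0184 to 0.0257 for Neurod1, -0.138 to 0.149 for Neurod6, -0.212 to 0.0831 for Gad1, -0.155 to 0.0284 for Gad2 and -0.75 to 0.0955 for Olig1. Among the 12 members below the filter, values near 3 counts cannot show a difference. Some, such as Stmn3 and Olig1 at 139 and 115 counts in WT replicate 1, were well above that in few libraries.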

Other observations

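Genes of the related lists, picked here after their values were seen, showed which brain transcripts the libraries held. In WT replicate 1, Sox1, a factor of neural stem cells, held 81 counts against 0 or 1 in the other 7 libraries, and Slc32a1, the vesicular GABA transporter, held 23 against 0. Mlc1 and Ncan, an astrocyte membrane protein and a brain proteoglycan, held 193 and 389 counts there against 0 to 15 and 2 to 62. Among brain oligodendrocyte genes, Mobp, a myelin protein, held 63 against 0 to 5, whereas Mog, another, held 6 against 2 to 11, Opalin held 0 in all 8 libraries, and WT replicate 1 was highest for 5 of the 12 genes of that list with over 3 counts in any library.

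KO replicate 3 and WT replicate 1 shared Neurod2, a factor of cortical excitatory neurons, at 35 and 34 counts, and Mapt, which encodes tau, at 304 and 318 counts. KO replicate 4 held 26 counts of Neurod2 and 98 of Pax6, a factor of radial glia that held 122 in WT replicate 1 and 9 to 22 elsewhere. It also held 13 counts of Nkx2-1 and 22 of Otx2, factors of different neural regions that stood at 0 to 4 counts in the other 7 libraries. The epidermal gene Ivl held 11 counts there and 0 or 1 elsewhere. KO replicate 4 was highest for 11 of the 19 epidermal genes with over 3 counts in any library. It was also the library with 983 genes over 3 counts that held 0 in the other 7, so its extra transcripts were not particular to neural genes. WT replicate 1 held 0 counts of Kcnj9.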
